A study of Homo sapiens with 8 samples.

Results

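The miR-99/100 family was followed across 2 HER2-positive breast cancer cell lines with and without trastuzumab. Its 3 members, hsa-miR-99a-5p, hsa-miR-99b-5p and hsa-miR-100-5p, were found by name among the 2006 human miRNAs of a one-colour array, and the rule that names them uses no measured value. BT474 is labelled ER+, HER2+, PR+, and SKBR3 is labelled ER-, HER2+, PR+, although the methods of the study give SKBR3 as PR-. Both are established lines, grown in different media, BT474 in RPMI with insulin and SKBR3 in McCoy's medium, so that line and medium cannot be told apart. The cells received 6 μg/mL trastuzumab, an antibody against the receptor HER2, or PBS as its control, for 144 h, and total RNA was hybridized with 2 biological replicates per line and treatment. The file labelled SKBR3 PBS replicate 1 is a copy of that of BT474 PBS replicate 1 and was left out, which leaves 7 distinct arrays and a single SKBR3 PBS array.

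A miRNA guides a silencing complex to messenger RNAs that pair with its seed, the stretch of bases 2 to 8 from the 5′ end. The miR-99/100 family is known for repressing MTOR, the kinase that couples growth factor and nutrient signals to protein synthesis, and other genes of insulin and growth factor signalling such as IGF1R. HER2 signals through PI3K and AKT to mTOR, and trastuzumab acts on this route. Only miRNAs were measured here, with no mRNA or protein.

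The mature sequences of the 3 members are shown because their near identity sets what the array can tell apart. They were taken from RefSeq with its GRCh38.p14 positions, and the capitals mark the seed.
hsa-miR-99a-5p: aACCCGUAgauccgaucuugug
hsa-miR-99b-5p: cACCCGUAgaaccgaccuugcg
hsa-miR-100-5p: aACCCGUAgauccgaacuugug

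All 3 carry the seed ACCCGUA, which no other of the 2370 mature miRNA names in the RefSeq table had. With positions counted from 1 at the 5′ end and the base of the first named miRNA written first, miR-99a-5p and miR-100-5p differ by U16A alone and match at 21 of 22 bases. miR-99a-5p and miR-99b-5p differ by A1C, U11A, U16C and U21C, and miR-100-5p and miR-99b-5p by A1C, U11A, A16C and U21C, so that each of these pairs matches at 18 of 22 bases.

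The members come from 3 clusters that pair them with let-7 and miR-125 hairpins. miR-99a-5p lies at chr21:16539101-16539122 on the plus strand, within the long noncoding host gene MIR99AHG and 658 bases from the let-7c hairpin. miR-100-5p lies at chr11:122152275-122152296 on the minus strand, within the host gene MIR100HG, with the let-7a-2 and miR-125b-1 hairpins further along the same host. miR-99b-5p lies at chr19:51692618-51692639 on the plus strand, within the spans of SPACA6 and SPACA6-AS1. Its hairpin is 104 bases from that of let-7e, which is followed by miR-125a after 389 bases.

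The partners of these clusters are compared with the members below, and their mature sequences show which of them are near copies of each other. let-7c and let-7e each differ from let-7a at 1 base (G19A and G9U, with the base of let-7c or let-7e first).
hsa-let-7c-5p: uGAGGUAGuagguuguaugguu
hsa-let-7e-5p: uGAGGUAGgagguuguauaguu
hsa-let-7a-5p: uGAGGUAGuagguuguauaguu
hsa-miR-125b-5p: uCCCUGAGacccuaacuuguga
hsa-miR-125a-5p: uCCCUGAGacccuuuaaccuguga

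The mature miR-125b-5p and let-7a-5p are each encoded at more than 1 locus. miR-125b-5p comes from the chromosome 11 cluster and from a second hairpin in MIR99AHG on chromosome 21, and let-7a-5p also comes from chromosomes 9 and 22. Their signals therefore cannot be assigned to one cluster.

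All 7 arrays lie on 1 slide read in 1 scan. Slide row 2 holds the PBS arrays and slide row 1 those with trastuzumab, which means that row and treatment cannot be told apart, and each line has slide columns of its own. Between 201 and 256 miRNAs were detected per array, and 173 on all 7. The median signal of these 173 miRNAs lay between 716 and 910 on the BT474 arrays and between 353 and 534 on the SKBR3 arrays, so that the SKBR3 arrays were dimmer as a whole and a line difference depends on how arrays are scaled. In every group with 2 arrays the median SD between them was at most 0.0854 on the log2 scale. As a check of the cell type, 6 of the 6 epithelial miRNAs of the list that were matched on the array were detected in BT474 and 2 of 6, miR-200c-3p and miR-141-3p, in SKBR3, where miR-200a-3p, miR-200b-3p, miR-429 and miR-205-5p were not. Of 13 miRNAs of blood, endothelial, stromal, liver and muscle cells, 10 were detected nowhere and none in SKBR3.

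The 3 members were detected on all 7 arrays. The signal given first is the summed signal of the scanner software, in intensity units as deposited and with no scaling between arrays. For miR-99a-5p it was 1649 and 2055 on the BT474 PBS arrays, 2064 and 2979 on the BT474 trastuzumab arrays, 613 on the SKBR3 PBS array, and 713 and 676 on the SKBR3 trastuzumab arrays. Every BT474 array lay above every SKBR3 array, and within both lines the trastuzumab arrays lay above the PBS arrays.

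For miR-99b-5p the summed signal was 776 and 917 on the BT474 PBS arrays, 823 and 953 on the BT474 trastuzumab arrays, 331 on the SKBR3 PBS array, and 446 and 398 on the SKBR3 trastuzumab arrays. The lines did not overlap, and the treatments overlapped in BT474. For miR-100-5p it was 142 and 164 on the BT474 PBS arrays, 176 and 243 on the BT474 trastuzumab arrays, 44.6 on the SKBR3 PBS array, and 57.6 and 54.8 on the SKBR3 trastuzumab arrays. As for miR-99a-5p, the lines did not overlap, and the trastuzumab arrays of each line lay above its PBS arrays. On this unscaled signal the BT474 arrays lay above the SKBR3 arrays for 3 of 3 members, beside 45.1% of the miRNAs tested. The trastuzumab arrays lay above the PBS arrays for 2 of 3 members in BT474, beside 35.1%, and for 3 of 3 in SKBR3, beside 71.6%. Signals of different members come from different probes and were not set against each other as levels.

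**Figure D1:**
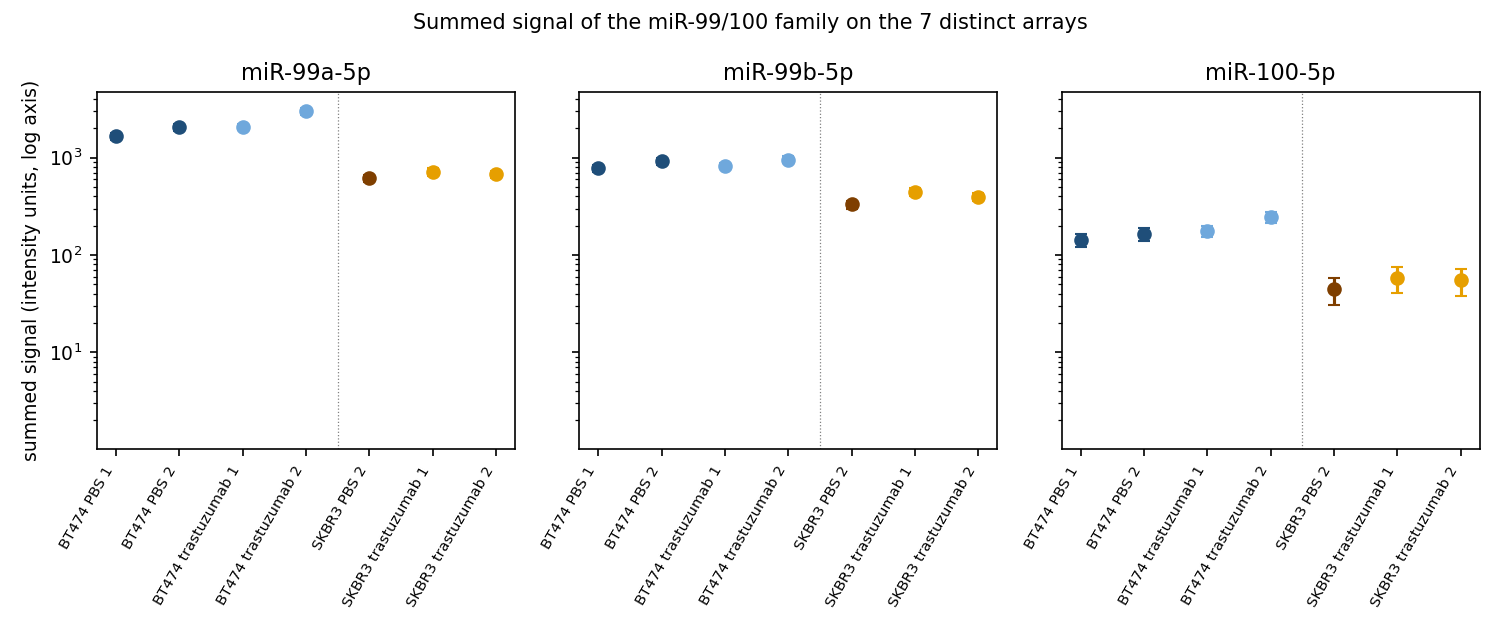
Summed signal (intensity units, log axis) of miR-99a-5p, miR-99b-5p and miR-100-5p on each of the 7 distinct arrays, with the error given by the scanner software as bars. BT474 arrays are on the left of the dotted line and SKBR3 arrays on the right. For each member the 4 BT474 points lie above the 3 SKBR3 points, for miR-99a-5p from 1649 upwards against at most 713.

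Each member was read by 2 probes with 15 spots each. Both probes of miR-99a-5p had all 15 spots well above background on every array, those of miR-99b-5p 14 or 15, and no spot was saturated. For these members the summed signal was the sum of both probes to within 1% on 7 of 7 arrays. Without scaling, the BT474 mean exceeded the SKBR3 mean by 1.70 and 1.75 on the log2 scale for the probes of miR-99a-5p, and by 1.25 and 1.20 for those of miR-99b-5p, so that the probes of a member gave close to the same line difference.

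miR-100-5p rested on 1 probe. Its first probe had 15 of 15 spots well above background on each BT474 array but 1, 2 and 3 of 15 on the SKBR3 PBS array and the SKBR3 trastuzumab arrays 1 and 2. Its second probe gave between -3.32 and 8.66 intensity units over the 7 arrays, with at most 1 of 15 spots well above background, and the summed signal equalled the first probe on 7 of 7 arrays. The SKBR3 signals of 44.6 to 57.6 lay above the lowest detected signals of those arrays, which ranged from 19.3 to 28.3. miR-100-5p was thus flagged as detected in SKBR3 while most of its spots were not well above background. Whether the miR-100-5p probe also bound miR-99a-5p, from which it differs at 1 base, was not tested.

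**Figure D2:**
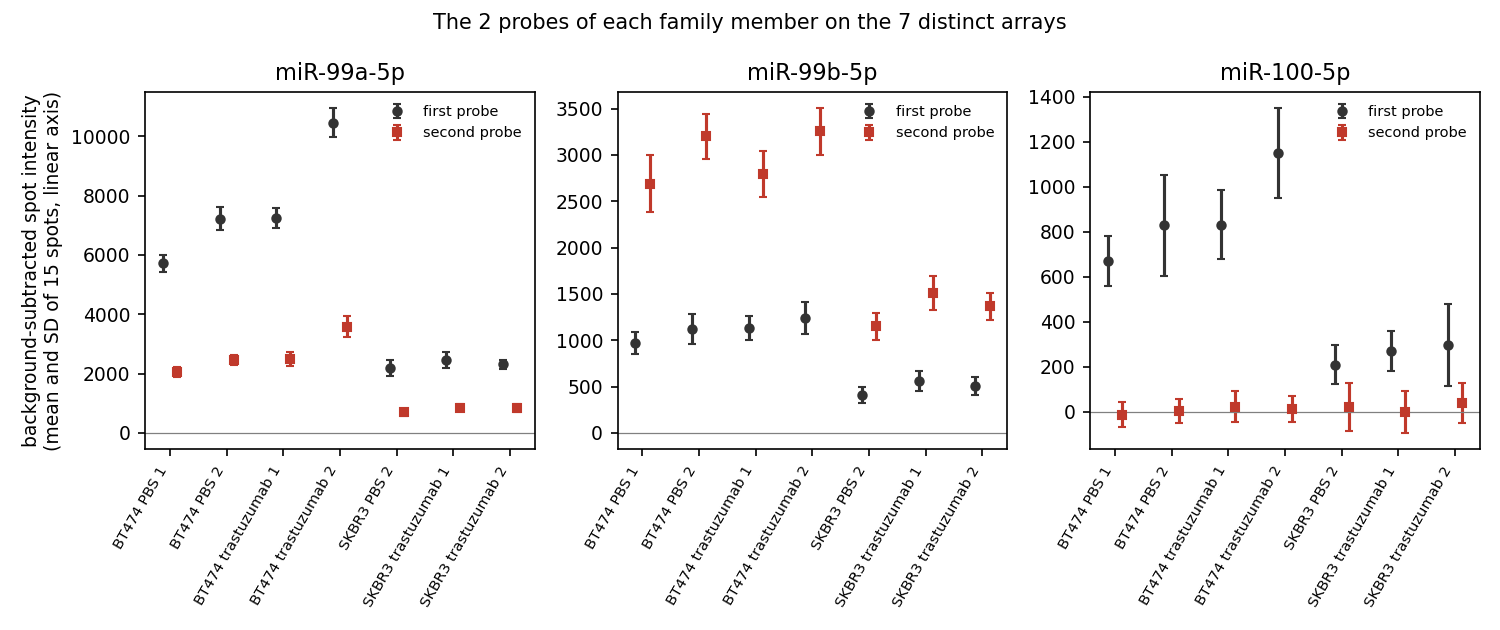
Background-subtracted spot intensity (mean and SD of 15 spots, linear axis) of the 2 probes of each member on the 7 distinct arrays. Both probes of miR-99a-5p and of miR-99b-5p are lower on the SKBR3 arrays, while the second probe of miR-100-5p stays near 0 on every array.

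The opposite arms of the hairpins, miR-99a-3p, miR-99b-3p and miR-100-3p, were flagged as detected on 0 of 7 arrays. Each has 4 probes, with 210 spots over the 7 arrays, of which 1 was well above background for miR-99a-3p, 0 for miR-99b-3p and 4 for miR-100-3p. Probe means ranged from -68.8 to 241 intensity units, around 0. The arrays therefore gave no measured level for the opposite arms in either line.

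The log2 values deposited by the authors have an entry for each of these probes, and for miR-99a-3p 1 of them stood apart. Its second probe had deposited log2 values of 5.97 and 7.93 on the BT474 PBS arrays and of 3.80 and 4.60 on the BT474 trastuzumab arrays, a trastuzumab minus PBS difference of -2.75. The trastuzumab minus PBS differences of the other 3 probes were 0.15, 0.04 and 0.39. The paper lists miR-99a-3p among the miRNAs most reduced with trastuzumab in BT474, with mean signals that match those of the second probe. On BT474 PBS replicate 2 the second probe had a mean of 241 ± 640 (SD, 8 spots), a median of 9.04 and a highest spot of 1818, so that a single bright spot carried that value. Averaged over the 4 probes, the deposited values of miR-99a-3p differed by -0.54 (SE 0.36, limma adjusted p = 0.663 over 2006 miRNAs, 2 against 2 arrays), which did not pass the test.

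**Figure D3:**
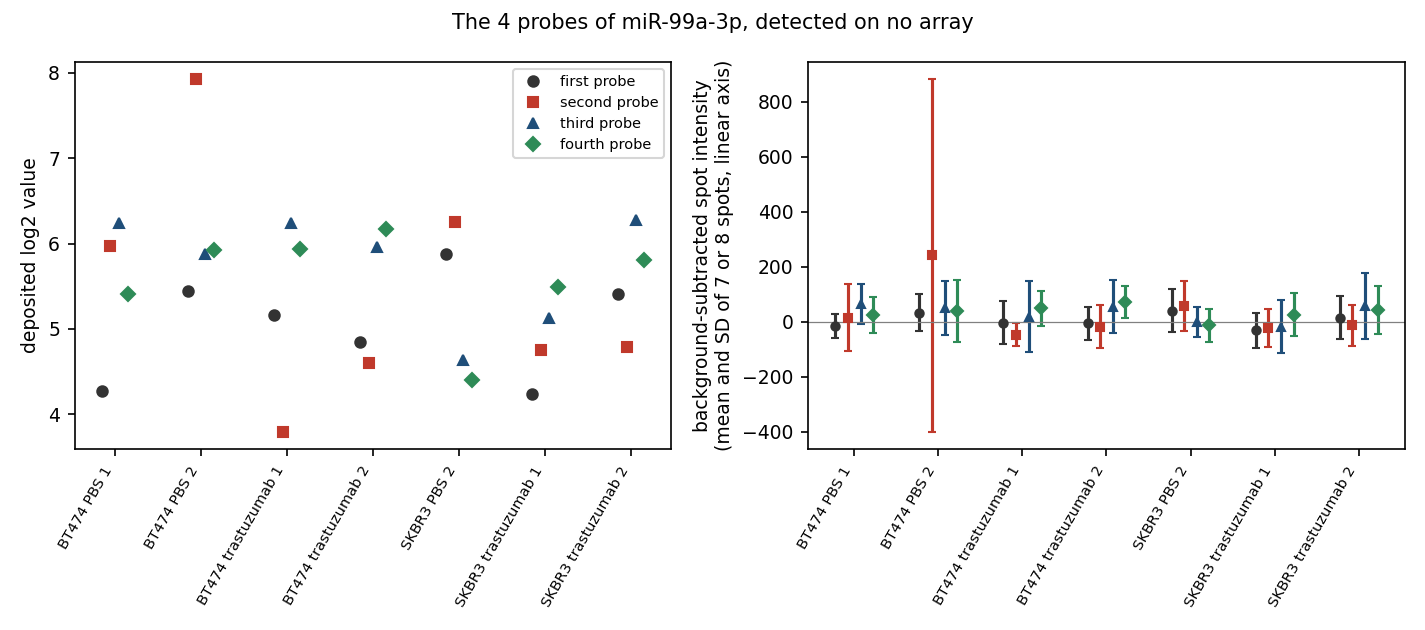
The 4 probes of miR-99a-3p on the 7 distinct arrays, as log2 values deposited by the authors (left) and as background-subtracted spot intensity with the SD over 7 or 8 spots (right, linear axis). The second probe is highest at 7.93 on BT474 PBS replicate 2, where its spots have a mean of 241 and an SD of 640, and the other probe means lie near 0.

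To compare the lines, quantile normalization was applied to the summed signals of all miRNAs on the 7 arrays, lower values were raised to a floor of 10, and log2 values were fitted with limma. A miRNA was called at a Benjamini-Hochberg adjusted p under 0.05. miR-99a-5p had normalized log2 values of 10.64, 10.67, 10.67 and 10.89 on the BT474 arrays and of 10.39, 10.01 and 10.14 on the SKBR3 arrays, PBS first. The lines did not overlap, and BT474 was higher by 0.48 (SE 0.082, 1.40-fold, limma adjusted p = 0.0088). miR-99a-5p was the 1 member of 3 called, against 33.6% of the 304 miRNAs tested called higher in BT474 and 69.4% called in either direction. The call was not made with the PBS arrays alone (0.26, limma adjusted p = 0.160, 2 arrays against 1), where 56.9% of all miRNAs were called. It was made with the trastuzumab arrays alone (0.71, limma adjusted p = 0.0069, 2 against 2), where 63.2% were.

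miR-100-5p had normalized log2 values of 6.99, 6.92, 7.14 and 7.27 on the BT474 arrays and of 6.72, 5.88 and 6.57 on the SKBR3 arrays. The lines did not overlap, as for 28% of all miRNAs tested in that direction, but the SKBR3 values were far apart. BT474 was higher by 0.60 (SE 0.20, 1.52-fold), which missed the threshold (limma adjusted p = 0.0625). It was 0.23 with the PBS arrays alone (limma adjusted p = 0.603, 2 arrays against 1) and 0.97 with the trastuzumab arrays alone (limma adjusted p = 0.0354, 2 against 2).

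miR-99b-5p had normalized log2 values of 9.56, 9.54, 9.34 and 9.30 on the BT474 arrays and of 9.42, 9.26 and 9.26 on the SKBR3 arrays. The SKBR3 PBS array lay above both BT474 trastuzumab arrays, so that the lines overlapped. The difference of 0.09 (SE 0.034) missed the threshold (limma adjusted p = 0.0719), with a 95% interval from -0.002 to 0.19.

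The size of these differences depended on the scaling, because it moved the median of all commonly detected miRNAs. That median was -0.42 under quantile normalization, -0.20 when arrays were scaled to their 75th percentile, and 0.71 with no scaling, as BT474 minus SKBR3 on the log2 scale. Relative to it, miR-99a-5p was higher in BT474 by 0.90 under quantile normalization and by 1.00 under the other scalings, miR-100-5p by 1.02 and 1.12, and miR-99b-5p by 0.51 and 0.50. The other scalings multiply a whole array by a single factor, so their values relative to the median are the same by construction. All 3 members were higher in BT474 under each of the 4 scalings, and under 75th percentile scaling all 3 were called, with differences of 0.80, 0.30 and 0.92 for miR-99a-5p, miR-99b-5p and miR-100-5p, beside 39.7% of the 307 miRNAs tested called higher in BT474 and 69.4% called in either direction under that scaling. In the quantile normalized values 77.3% of the commonly detected miRNAs had a lower difference than miR-99a-5p, 81.4% a lower one than miR-100-5p and 65.1% a lower one than miR-99b-5p.

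**Figure D4:**
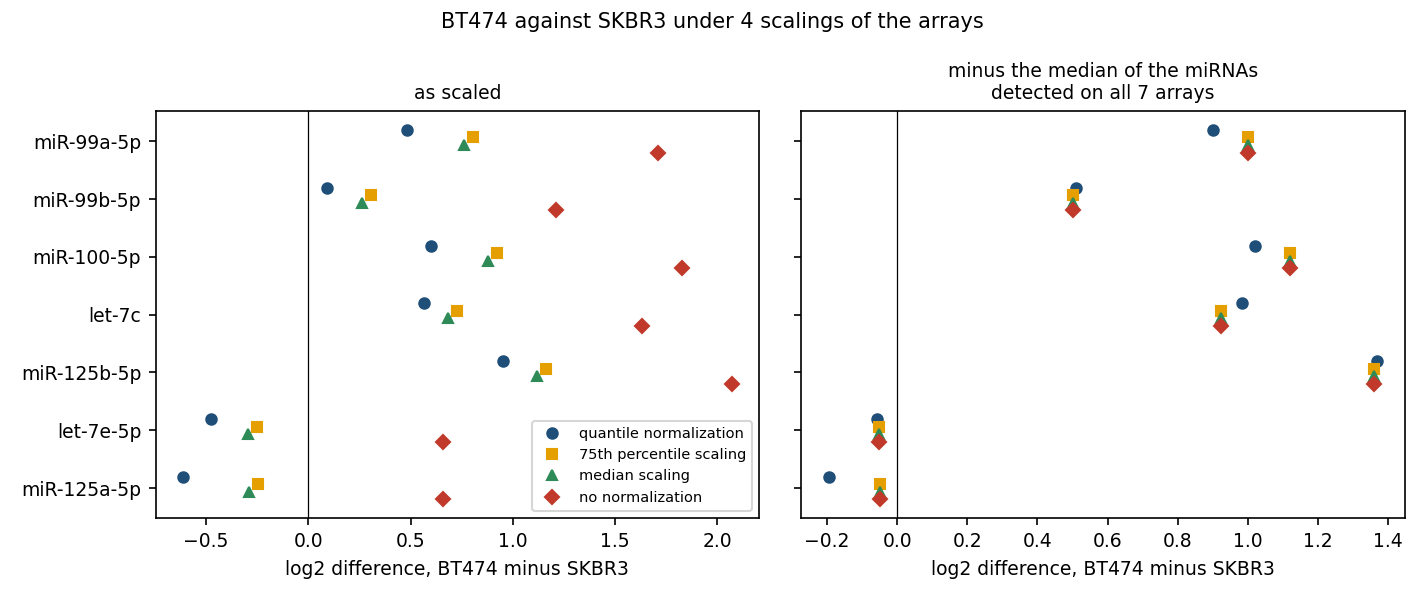
BT474 minus SKBR3 log2 difference of the members and 4 cluster partners under 4 scalings of the arrays (quantile normalization, 75th percentile, median of the commonly detected miRNAs, none), as scaled (left) and after subtracting the median difference of the miRNAs detected on all 7 arrays (right). On the left the points of a miRNA spread, for miR-99a-5p from 0.48 to 1.71. On the right the 75th percentile, median and unscaled points coincide by construction, because these scalings multiply a whole array by a single factor. Against them quantile normalization puts miR-99a-5p at 0.90 instead of 1.00 and miR-99b-5p at 0.51 instead of 0.50. Both let-7e-5p and miR-125a-5p lie below 0.

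Of the partners of miR-99a-5p and miR-100-5p, let-7c and miR-125b-5p were higher in BT474 under each scaling, and let-7a-5p was not. let-7c, a let-7 family member known for restraining RAS and growth genes, had summed signals of 3931 to 6490 on the BT474 arrays and of 1473 to 1955 on the SKBR3 arrays, with no overlap. Its normalized log2 value was higher in BT474 by 0.57 (SE 0.076, limma adjusted p = 0.0044). miR-125b-5p, which is known to repress ERBB2 and ERBB3 in breast cancer cells, had summed signals of 1152 to 2085 against 357 to 412, and was higher by 0.95 (SE 0.045, limma adjusted p = 2.3e-04). Relative to the median they stood at 0.98 and 1.37 under quantile normalization and at 0.92 and 1.36 under the other scalings, which coincide by construction. let-7a-5p was called higher in BT474 by 0.21 under quantile normalization (limma adjusted p = 0.0065). There it held the same rank on all arrays of a line, so its p does not rest on a measured spread between arrays. Its summed signals ran from 17013 to 22848 in BT474 and from 10644 to 14935 in SKBR3. let-7a-5p lay at -0.17 under 75th percentile scaling and at -0.22 under median scaling. Relative to the median it stood at 0.62 under quantile normalization and at 0.02 under the other scalings.

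The partners of miR-99b-5p went the other way in the quantile normalized values. let-7e-5p was lower in BT474 by a log2 difference of -0.47 (SE 0.050, limma adjusted p = 0.0022) and miR-125a-5p by one of -0.61 (SE 0.047, limma adjusted p = 8.4e-04), but with no scaling both were higher in BT474, by 0.66 and 0.66. Relative to the median they stood at -0.06 and -0.19 under quantile normalization and both at -0.05 under the other scalings. There miR-99b-5p of the same cluster stood at 0.51 and 0.50. The opposite arm of miR-125a was detected on the 3 SKBR3 arrays and on BT474 trastuzumab replicate 1, with summed signals of 27.4, 44.5 and 44.8 against 36.3. It was called lower in BT474 (limma adjusted p = 0.0117), but with 3 of 4 BT474 arrays undetected the size of the log2 difference was set by the floor, at -2.45 with a floor of 10, -4.94 with 1 and -1.12 with 32. With no scaling it was -1.34 and was not called (limma adjusted p = 0.0899). Nor was it called without BT474 PBS replicate 1 (-2.39, limma adjusted p = 0.0559) or SKBR3 trastuzumab replicate 2 (-2.38, limma adjusted p = 0.0618). Of the 6 partners tested 3 were thus called higher and 3 lower in BT474 under quantile normalization, beside 69.4% of all miRNAs tested called in either direction, and 3 further ones, the opposite arms of miR-125b-1, miR-125b-2 and let-7e, were detected nowhere.

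A log2 difference between 2 miRNAs on the same array does not change when the whole array is scaled. Such differences were therefore taken for 9 pairs, chosen after the values had been seen, and compared between the 4 BT474 and 3 SKBR3 arrays with an exact two-sided permutation test, whose smallest possible p here is 0.0571. The difference of miR-99a-5p to miR-99b-5p was 1.31 ± 0.25 (SD, n = 4) in BT474 and 0.78 ± 0.11 (SD, n = 3) in SKBR3 with no overlap (exact p = 0.0571, adjusted p = 0.0735 over the 9 pairs). That of miR-100-5p to miR-99b-5p was -2.28 ± 0.24 and -2.90 ± 0.05 with no overlap (exact p = 0.0571). On these arrays both members of the chromosome 21 and chromosome 11 clusters were thus higher relative to miR-99b-5p in BT474, by 0.53 and 0.62. With this many arrays no pair could reach a p under 0.05. How often other pairs of detected miRNAs did not overlap between the lines was not tested.

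The other 7 pairs set the members against their cluster partners and miR-99a-5p against miR-100-5p. miR-99a-5p to let-7c was -1.25 ± 0.12 in BT474 and -1.35 ± 0.10 in SKBR3 and overlapped (exact p = 0.286, n = 4 and 3). miR-99b-5p to let-7e-5p was -2.93 ± 0.16 and -3.48 ± 0.004 with no overlap, and miR-99b-5p to miR-125a-5p was -0.43 ± 0.24 and -0.97 ± 0.03 with no overlap (exact p = 0.0571 for each). miR-99b-5p was thus higher in BT474 by 0.55 and 0.54 relative to the hairpin partners beside it. miR-100-5p to let-7a-5p was -6.83 ± 0.18 and -7.93 ± 0.07 with no overlap (exact p = 0.0571), the largest line difference of the 9 pairs. miR-125b-5p went the other way. miR-100-5p to miR-125b-5p was -3.14 ± 0.11 and -2.86 ± 0.13, and miR-99a-5p to miR-125b-5p was 0.45 ± 0.12 and 0.82 ± 0.05, both with no overlap (exact p = 0.0571 for each). Both members were thus lower relative to miR-125b-5p in BT474, with line differences of -0.28 and -0.37. miR-99a-5p to miR-100-5p was 3.59 ± 0.05 and 3.68 ± 0.09, which overlapped (exact p = 0.229), with a line difference of -0.09.

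Under quantile normalization the differences between trastuzumab and PBS in BT474 were small for all 3 members. With no scaling the log2 differences were 0.43 for miR-99a-5p, 0.07 for miR-99b-5p and 0.44 for miR-100-5p. On the quantile normalized log2 scale miR-99a-5p differed between trastuzumab and PBS by 0.13 (SE 0.11, 95% interval -0.23 to 0.48, limma adjusted p = 0.484) and miR-100-5p by 0.25 (SE 0.090, 95% interval -0.04 to 0.53, limma adjusted p = 0.177). miR-99b-5p had values of 9.56 and 9.54 with PBS and of 9.34 and 9.30 with trastuzumab. These did not overlap, but the difference of -0.23 (SE 0.068, 95% interval -0.45 to -0.01) was not called (limma adjusted p = 0.126). None of the 3 members was called, against 13.1% of the 282 miRNAs tested, and 28% of these did not overlap and were lower. miR-99b-5p had an unadjusted p of 0.0425, and none of the 3 reached the 2-fold change that the study asked for.

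Relative to the median of the commonly detected miRNAs, miR-99a-5p stood at 0.12 and miR-100-5p at 0.24 in BT474 under quantile normalization, and at 0.21 and 0.22 under the other scalings. miR-99b-5p stood at -0.24 and -0.15. The within-array difference of miR-99a-5p to miR-99b-5p was 1.09 and 1.16 with PBS and 1.33 and 1.64 with trastuzumab. That of miR-100-5p to miR-99b-5p was -2.45 and -2.49 with PBS and -2.22 and -1.97 with trastuzumab. In both, the trastuzumab arrays lay above the PBS arrays, and with 2 arrays against 2 this was not tested.

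In SKBR3 the direction of the treatment difference depended on the scaling for all 3 members. Values were lower with trastuzumab under quantile normalization and median scaling, and higher with no scaling. Under 75th percentile scaling miR-99b-5p and miR-100-5p were higher and miR-99a-5p was about unchanged. Quantile normalization is given first. The log2 differences were -0.31 for miR-99a-5p (SE 0.099, limma adjusted p = 0.272), -0.15 for miR-99b-5p (SE 0.020, limma adjusted p = 0.137) and -0.50 for miR-100-5p (SE 0.49, 95% interval -3.44 to 2.45, limma adjusted p = 0.634), with 2 trastuzumab arrays against 1 PBS array that was assumed to vary like them. Quantile normalization gave miR-99b-5p the same value, 9.26, on both trastuzumab arrays, where its summed signals were 446 and 398. Its SE is therefore not a measured spread between them. None of the 3 was called, against 6.31% of the 222 miRNAs tested. Both trastuzumab arrays lay below the PBS array for 3 of 3 members, as for 49.5% of the miRNAs tested. In the same order, the log2 differences were 0.001, 0.17 and 0.16 under 75th percentile scaling and 0.18, 0.35 and 0.33 with no scaling. Under median scaling they were -0.30, -0.13 and -0.14. Relative to the median of the commonly detected miRNAs, miR-99a-5p stood at -0.20 and -0.18, miR-99b-5p at -0.04 and -0.01, and miR-100-5p at -0.38 under quantile normalization but at -0.02 under the other scalings. The lone PBS array leaves little to tell a change of this size from the spread between arrays.

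Whether the lines responded differently was tested as the change in BT474 minus the change in SKBR3. It was 0.44 for miR-99a-5p (SE 0.16, limma adjusted p = 0.179), -0.08 for miR-99b-5p (SE 0.068, limma adjusted p = 0.550) and 0.74 for miR-100-5p (SE 0.41, limma adjusted p = 0.327). None of the 3 was called, against 16.1% of the 304 miRNAs tested, and the values of miR-99a-5p and miR-100-5p were -0.02 and -0.17 under 75th percentile scaling. Of the partners, miR-125b-5p was called, with 0.58 (SE 0.091, limma adjusted p = 0.0308). It was not called under 75th percentile scaling (0.14, limma adjusted p = 0.479) or with no scaling (0.42, limma adjusted p = 0.669), nor without any one of the 4 trastuzumab arrays (0.54 to 0.60, limma adjusted p between 0.0506 and 0.0640). Its own changes were 0.21 in BT474 (adjusted p = 0.177) and -0.37 in SKBR3 (adjusted p = 0.147), and neither was called. Of the 5 partners tested within each line none was called in either.

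**Figure D5:**
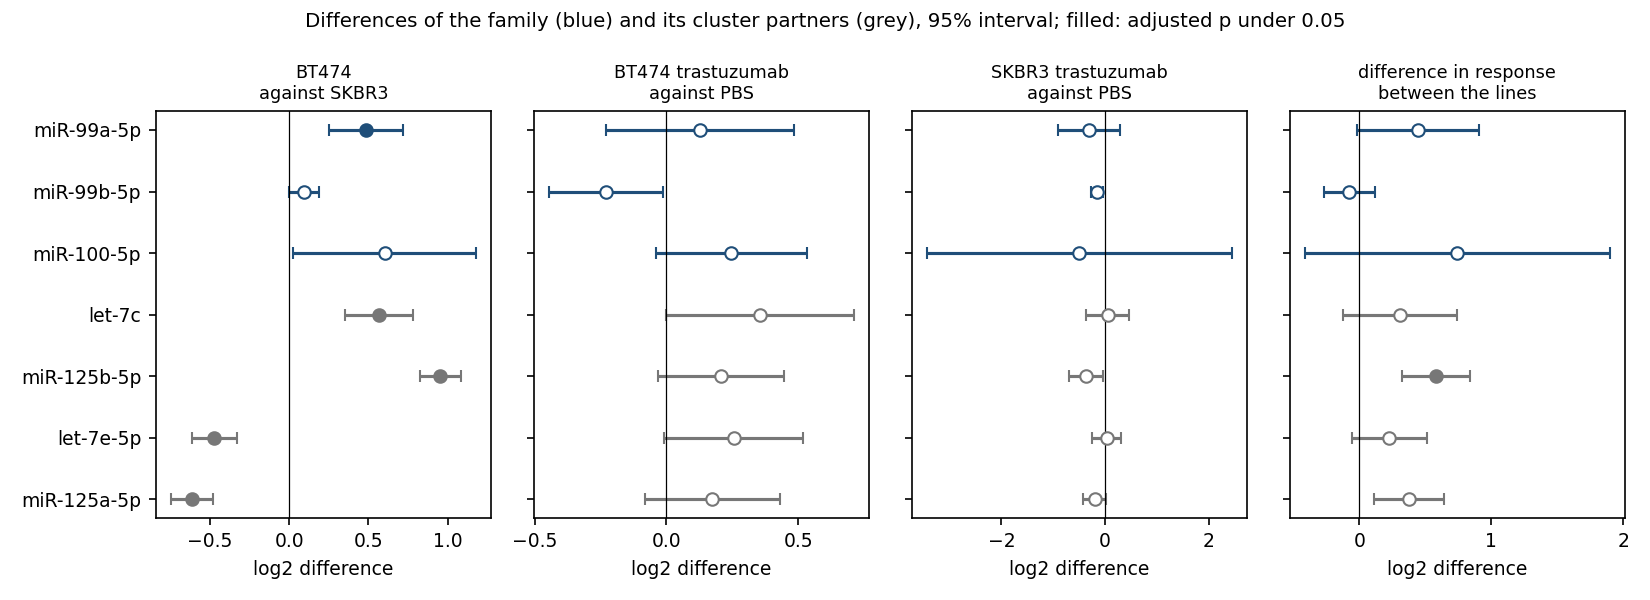
Log2 differences in quantile normalized signal with 95% limma intervals for the members (blue) and 4 cluster partners (grey), for BT474 against SKBR3, trastuzumab against PBS in each line, and the difference in response. The panels have different axes, and filled points have an adjusted p under 0.05. Among the members only miR-99a-5p between the lines, at 0.48, is filled.

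The miRNAs whose profiles were most like those of the members were named by the root mean square difference of mean-centred normalized log2 values over the 7 arrays, among 233 candidates. For miR-99a-5p these were miR-181a-5p (0.127), miR-148b-3p (0.132) and miR-28-5p (0.148), with miR-100-5p at rank 9 (0.184). For miR-99b-5p they were miR-92a-3p (0.0757), miR-20a-5p (0.0801) and miR-93-5p (0.0878). For miR-100-5p they were miR-99a-5p (0.184), miR-149-5p (0.186) and miR-15a-5p (0.203).

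When likeness was measured without any scaling, as the SD of the within-array log2 difference, miR-99a-5p and miR-100-5p were each other's nearest among 172 candidates, with an SD of 0.081 over the 7 arrays. For miR-100-5p, miR-148b-3p (SD 0.0814) and miR-181b-5p (SD 0.0843) lay almost as near. For miR-99a-5p, miR-148b-3p was at rank 2 (SD 0.111). The miR-100-5p signal rests on a single probe, and whether that probe also bound miR-99a-5p was not tested. let-7c was at rank 3 for miR-99a-5p (SD 0.116). miR-99b-5p ranked 37 for miR-99a-5p (SD 0.338) and 41 for miR-100-5p (SD 0.372), where the median candidate had SDs of 0.683 and 0.720, and its own nearest miRNA was miR-16-5p (SD 0.087). The points are 7 arrays of 2 lines on 1 slide, and the ranking describes these arrays.

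Relatives by sequence and other miRNAs of the same signalling route gave context. miR-10b-5p, whose family shares part of the seed, had summed signals of 203, 269, 248 and 303 on the BT474 arrays and was not detected on the SKBR3 arrays. It was at least 3.39-fold higher in BT474, set against each SKBR3 array's lowest detected signal (BT474 mean log2 7.66, SKBR3 limit 5.90, limma adjusted p = 1.7e-05 with undetected values at the floor). miR-10a-5p was detected nowhere.

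Of 7 other miRNAs listed for published targets in MTOR and its regulators, 5 were detected on no array and 2 were tested. miR-7-5p, which is known to repress EGFR and the PI3K route, had summed signals of 454 and 633 on the BT474 PBS arrays, 224 and 273 on the BT474 trastuzumab arrays, 54.0 on the SKBR3 PBS array, and 88.6 and 74.0 on the SKBR3 trastuzumab arrays. In BT474 the treatments did not overlap, and it fell by 1.35 on the log2 scale with trastuzumab (SE 0.10, limma adjusted p = 0.0215). Its difference in response between the lines was -1.36 (SE 0.13, limma adjusted p = 0.0099), and it was higher in BT474 than in SKBR3 by 1.14 (SE 0.064, limma adjusted p = 3.5e-04). With no scaling its change in BT474 (-1.11, limma adjusted p = 0.145) and its difference in response (-1.70, limma adjusted p = 0.0955) were not called, and the change in BT474 was not called without trastuzumab replicate 1 (-1.34, limma adjusted p = 0.0911) or 2 (-1.35, limma adjusted p = 0.0961). miR-101-3p was detected on the 4 BT474 arrays and on 1 SKBR3 array, and was called higher in BT474 (limma adjusted p = 0.0261). With the other SKBR3 arrays undetected, the size of that difference depended on the floor. miR-101-3p was not called with the PBS arrays alone (3.83) or with the trastuzumab arrays alone (3.65, limma adjusted p = 0.0572). Its summed signal was 119 and 253 on the BT474 PBS arrays and 435 and 584 on the BT474 trastuzumab arrays, with no overlap, and the log2 difference of 1.33 (SE 0.44) was not called (limma adjusted p = 0.154). With trastuzumab in BT474 thus 1 of the 2 was called lower and 0 higher, beside 13.1% of all 282 miRNAs tested called in either direction. Their median of -0.01, beside 0.01 over all 282, lies between opposite differences.

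Of 3 tested markers of other cell types, 1 was called higher with trastuzumab in BT474: miR-1, a muscle miRNA, by 1.01 on the log2 scale (SE 0.11, limma adjusted p = 0.0312). Of all 282 miRNAs tested there, 13.1% were called in either direction. The endothelial miR-126-3p differed by 0.92 (SE 0.79) and the red cell miR-451a by 0.57 (SE 0.47), and neither passed the test. Of the 6 epithelial miRNAs, miR-205-5p was called higher by 1.11 (SE 0.10, limma adjusted p = 0.0241) and the other 5 were not called. These miRNAs were named after their values were seen. The summed signals of those detected added up to between 127 and 241 on the BT474 PBS arrays and between 337 and 528 on the BT474 trastuzumab arrays, carried by miR-1, miR-126-3p and miR-451a, and to 0 on the 3 SKBR3 arrays. The other muscle marker of the list, miR-133a, the red cell marker miR-144-3p and the blood, stromal and liver markers miR-142-3p, miR-223-3p, miR-143-3p, miR-145-5p and miR-122-5p were detected on no array. Whether RNA of such cells was present at all, or entered the values of the miR-99/100 family, was not tested.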

How the data were processed

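Total RNA of 8 labelled samples was hybridized to one-colour Agilent miRNA arrays (miRBase 19). The authors deposited the intensity output of Agilent Feature Extraction 11.5.1.1, not normalized between arrays, with spot intensities and, per miRNA, a summed signal and a detection flag. They also deposited log2 values per probe, quantile normalized within each line by the authors with a floor at log2 of 10. Human spots number 60180 of 62344 per array. 1 copied array was left out.

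Summed signals of the 7 distinct arrays were quantile normalized and floored at 10, and their log2 was fitted with limma 3.58.1 in R 4.3.3, within each line for the treatment and over 4 group means for the line and the response. miRNAs with no spread over the arrays of a fit were not tested. An adjusted p under 0.05 (Benjamini-Hochberg, over all miRNAs tested) was a call, beside the study's unadjusted p under 0.05 with a 2-fold change. Intervals are 95%. The fits were tested on simulated data. The methods of the study give the replicates as biological, and their small number limits the precision.

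The text names the members, their opposite arms, cluster partners, sequence relatives and listed miRNAs of MTOR and cell types (a further list is not reported here); the nearest profiles were ranked by root mean square difference. Members and lists were chosen with earlier results of these data known. Sequences are from RefSeq (GRCh38.p14), where no mature miR-10b-5p was matched. Alternatives were scaling to the 75th percentile, no scaling, floors of 1 and 32, commonly detected miRNAs, mean spot intensity and normexp with offset 50. Further ones were each array left out, a replicate block, the 8 labelled arrays, 1 fit over both lines and the deposited log2 values. The last were an ordinary t-test without the study's random variance model, and the treatments apart. Median scaling, quantile normalization within a line and within-array differences were added after the data were seen. Other steps used scipy 1.17.1, numpy 2.4.6, pandas 2.3.3 and matplotlib 3.10.9 in Python 3.11.15.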

Additional observations from a re-analysis of the deposited data

Results flagged for a closer look

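The change with trastuzumab differed between the lines for miR-125b-5p, a cluster partner of miR-100-5p, by 0.58 on the log2 scale (limma interaction, adjusted p = 0.0308). Its quantile normalized values were higher on both BT474 trastuzumab arrays than on both PBS arrays and lower on both SKBR3 trastuzumab arrays than on the single PBS array, whereas its summed signals in SKBR3 were 357 with PBS and 412 and 368 with trastuzumab. The difference was not called under 75th percentile scaling (0.14, limma adjusted p = 0.479), with no scaling (0.42, limma adjusted p = 0.669) or without any one of the trastuzumab arrays. The change also differed for miR-7-5p, by -1.36 (limma interaction, adjusted p = 0.0099), with 8.76 and 8.95 on the BT474 PBS arrays against 7.50 and 7.52 on the trastuzumab arrays, and 7.04 on the SKBR3 PBS array against 7.07 and 7.04, as normalized log2 values, and was not called with no scaling (-1.70, limma adjusted p = 0.0955). Both rest on 1 SKBR3 PBS array, and their cause was not tested.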

How the results depend on the processing

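The higher level of miR-99a-5p in BT474 kept its direction under 12 of 12 alternatives (0.26 to 1.71), apart from leaving out single arrays. It kept its call under 10. It was not called with the PBS arrays alone (0.26) or with the 8 labelled arrays (0.42, adjusted p = 0.0792). miR-100-5p and miR-99b-5p kept the direction too, and were called under 7 and 5 of 12. These 12 include the PBS arrays alone and the trastuzumab arrays alone, which do not keep all replicates. The alternative floors and the limit to commonly detected miRNAs could not move the differences of the members. All their values lay above the floors, and they were detected on every array, so that the same direction there was fixed in advance. Causes were not tested.

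Under 75th percentile scaling the line differences of miR-99b-5p and miR-100-5p were called (0.30 and 0.92), and let-7a-5p lay at -0.17. The treatment differences of miR-99a-5p and miR-100-5p in BT474 became -0.022 and -0.011, those of miR-99a-5p, miR-99b-5p and miR-100-5p in SKBR3 became 0.00098, 0.17 and 0.16, and the differences in response of miR-99a-5p and miR-100-5p became -0.023 and -0.17. Calls numbered 58 in BT474 and 0 in SKBR3 (limma, 43 at an unadjusted p under 0.05), against 37 and 14. The line calls were 102 higher and 109 lower under quantile normalization, 122 and 91 under 75th percentile scaling and 165 and 21 with no scaling.

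With no scaling the line differences of miR-99b-5p, miR-100-5p, let-7e-5p and miR-125a-5p were 1.21, 1.83, 0.66 and 0.66. The treatment differences of miR-99a-5p, miR-99b-5p and miR-100-5p in BT474 were 0.43, 0.071 and 0.44. In SKBR3 those of miR-99a-5p, miR-99b-5p, miR-100-5p and miR-125b-5p were 0.18, 0.35, 0.33 and 0.13. Calls were 19 in BT474 and 25 for the response. With mean spot intensities the line differences of miR-99b-5p, miR-100-5p, let-7e-5p and miR-125a-5p were 1.01, 1.49, 0.45 and 0.47. The treatment difference of miR-99b-5p in BT474 was then 0.13. Those of miR-99a-5p, miR-99b-5p, miR-100-5p and miR-125b-5p in SKBR3 were 0.16, 0.33, 0.38 and 0.10. Calls with mean spot intensities were 0 in BT474 (limma, 157 unadjusted), 190 in SKBR3 and 114 for the response. With normexp, which keeps all 2006 miRNAs, calls were 93, 33, 403 and 91 in the 4 comparisons, miR-100-5p was 0.011 in SKBR3 and 0.31 and called between the lines, and let-7a-5p was -0.040 between the lines. With median scaling miR-99b-5p and miR-100-5p were called between the lines (0.26 and 0.88), let-7a-5p was -0.22, the response of miR-99b-5p was 0.054 and SKBR3 had 8 calls.

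With a floor of 32 miR-99b-5p was called between the lines (0.094), and with commonly detected miRNAs alone miR-100-5p was (0.60), with 0 calls in SKBR3 (limma, 57 unadjusted) and 23 for the response. In 1 fit over both lines miR-99b-5p was called lower with trastuzumab in BT474 (-0.23, adjusted p = 0.0335), with 73 calls in BT474 and 36 in SKBR3. The deposited log2 values gave 0 calls in either line (limma, 181 and 144 unadjusted), with miR-100-5p at 0.24 and miR-7-5p at -0.052 in SKBR3. In BT474 an ordinary t-test on the quantile normalized summed signals gave 26 miRNAs at the study's thresholds and 3 after Benjamini-Hochberg (76 unadjusted). It lacked the random variance model that the paper names for its t-test, so these are not the study's own calls. With trastuzumab arrays alone miR-100-5p was 0.97 between the lines and called. The 8 labelled arrays gave 3 calls in SKBR3, 6 between the lines and 5 for the response, with miR-7-5p at -0.84 in SKBR3 and the response of miR-99b-5p at 0.0014.

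Same-numbered BT474 arrays are not said to be paired, and their deviations correlated at 0.209 over 221 miRNAs. With the replicate block calls fell to 0 in BT474 (limma, 72 unadjusted) and to 22 for the response. SKBR3 shares 1 number and could not be fitted.

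Leaving out 1 array at a time gave 0.41 to 0.53, 0.084 to 0.11 and 0.44 to 0.72 for miR-99a-5p, miR-99b-5p and miR-100-5p between the lines, 0.01 to 0.21, -0.25 to -0.21 and 0.19 to 0.29 in BT474, -0.38 to -0.24, -0.17 to -0.14 and -0.71 to -0.16 in SKBR3, and 0.33 to 0.53, -0.09 to -0.06 and 0.40 to 0.97 for the response. miR-99b-5p was called between the lines without BT474 PBS replicate 2 or either BT474 trastuzumab array, and miR-100-5p without either SKBR3 trastuzumab array. The response of miR-100-5p was called without SKBR3 trastuzumab replicate 2 (0.97, adjusted p = 0.0496). Calls ranged from 188 to 207 between the lines, from 23 to 37 in BT474 (23 and 24 without PBS replicates 1 and 2), from 14 to 42 in SKBR3 (42 without trastuzumab replicate 2) and from 29 to 71 for the response (29 without SKBR3 trastuzumab replicate 1). A lone array was assumed to vary like the others. Without SKBR3 PBS replicate 2 no SKBR3 PBS array remains, and the SKBR3, line and response values could not be had. In SKBR3 the signal of miR-100-5p, with 1 to 3 of 15 spots well above background, limits every value that uses it.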
